A study of Mus musculus with 127 samples.

Results

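The 33 genes described here are markers of cortical GABAergic interneurons, chosen by name, and each was found among the 54838 gene rows of the deposited count tables. Poly(A) RNA of mouse cortex at about day 60 was sequenced to learn what a mutated Chd8, an autism gene whose product remodels chromatin, does to adult cortical expression, with whole tissue and biochemical fractions as the material. In the germline line, heterozygotes with 1 mutant allele in every cell (Chd8+/5bpdel, HET) were compared with wild-type littermates (WT), with 16 HET and 15 WT whole cortex libraries, 9 HET and 12 WT nuclear, 7 HET and 11 WT synaptic, and 7 HET and 5 WT cytosolic libraries. In the conditional line the nuclear fraction gave 6 HET (Chd8+/flox), 3 HOM (Chd8flox/flox) and 4 WT (Chd8+/+) libraries and the synaptic fraction 5 HET, 5 HOM and 4 WT. All 3 of these groups carried Camk2a-Cre. Conditional whole cortex compared 6 Chd8+/flox libraries with Camk2a-Cre against 8 without Cre, by their titles. The protocol text describes those animals differently, and Cre and deletion cannot be told apart there. Camk2a-Cre acts in excitatory forebrain neurons, so interneurons of the conditional line are meant to keep their Chd8, whereas those of the germline line carry the mutation.

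Interneurons make GABA from glutamate with the decarboxylases encoded by Gad1 and Gad2 and load it into synaptic vesicles with the transporter encoded by Slc32a1. They are a small share of cortical neurons and fall into classes named after a marker: parvalbumin (Pvalb) and somatostatin (Sst) cells, which come from the medial ganglionic eminence and need the transcription factor Lhx6, and Vip, Lamp5, Sncg and related cells, many of which come from the caudal eminence and express Adarb2 and the serotonin receptor gene Htr3a. The Dlx factors and Sp9 act in their forebrain precursors. By where the product works, the members are 10 secreted proteins or peptide precursors (Sst, Npy, Vip, Cck, Tac1, Crh, Pnoc, Crhbp, Reln and Ndnf), 7 membrane proteins (Slc32a1, Htr3a, Cnr1, Kit, Erbb4, Lamp5 and Chodl), 7 cytoplasmic proteins (Gad1, Gad2, Pvalb, Calb2, Nos1, Cplx3 and Sncg), 8 nuclear proteins (Dlx1, Dlx2, Dlx5, Dlx6, Lhx6, Maf, Sp9 and Adarb2) and the noncoding RNA Dlx6os1. Messenger RNAs for secreted and membrane proteins are as a rule translated on the endoplasmic reticulum, and those for soluble proteins on free ribosomes.

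The peptide genes that name interneuron classes are also known as cAMP-responsive genes, and the promoters of Sst and Vip are shown here because both genes recur in the results below. Each sequence is the 250 bases before the RefSeq start (build GRCm38.p6), 5′ to 3′ on the gene's strand, at chr16:23890845-23891094 for Sst (minus strand) and chr10:5638968-5639217 for Vip (plus strand). Capitals mark the cAMP response element TGACGTCA or its shorter form TGACG.
Sst: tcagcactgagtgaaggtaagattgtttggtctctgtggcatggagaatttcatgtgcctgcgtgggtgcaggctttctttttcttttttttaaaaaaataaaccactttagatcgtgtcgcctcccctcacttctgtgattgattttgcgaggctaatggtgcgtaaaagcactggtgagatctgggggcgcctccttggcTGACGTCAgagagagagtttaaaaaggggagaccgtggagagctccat
Vip: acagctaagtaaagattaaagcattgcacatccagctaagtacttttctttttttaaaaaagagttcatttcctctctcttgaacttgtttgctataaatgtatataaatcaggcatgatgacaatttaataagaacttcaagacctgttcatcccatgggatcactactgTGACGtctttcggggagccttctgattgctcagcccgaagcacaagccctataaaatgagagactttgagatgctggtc
The element TGACGTCA began 48 bases before the Sst start, and TGACG began 79 bases before the Vip start. Promoters were found for 25 of the 33 members, and Sst was the 1 member with the full element, which 1.55% of all 32851 promoter windows of this length held. The shorter form, which the full one contains, stood on either strand in 9 members and in 17.8% of all windows. The 25 members had 33 windows, and members are counted by gene but the shares by window, so these are not like for like. A match describes these letters and is no evidence of binding.

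Total counts per library ran from 19 M (M for mega) to 134.6 M, with conditional whole cortex the deepest at 98.1 to 134.6 M. The cytosolic libraries are a set of their own, so their batch and their fraction cannot be told apart. Chd8 itself was lower in HET than in WT in germline whole cortex (log2 fold change -0.58, SE 0.08, adjusted p = 7.9e-05, edgeR quasi-likelihood test). Its fold change was -0.01 in germline nuclei, -0.82 in the germline synaptic and -0.43 in the germline cytosolic fraction, none with an adjusted p under 0.05. In the conditional line its log2 fold change was -0.52 in whole cortex with Cre against without, -0.06 in HET nuclei and -0.47 in HOM nuclei. It was -0.21 in the HET synaptic fraction and -0.57 in the HOM synaptic fraction, and none of these conditional values passed. Synaptic libraries WT male replicates 1 and 2 of the germline line had the profile of nuclei, nuclear libraries WT male replicate 7 and HET female replicate 4 had sex markers that go against their labels, and the labels give 1 conditional animal as HET for its nuclei (HET female replicate 4) but as HOM for its synaptic RNA (HOM female replicate 2). The defining genes were at 0 in no group, for the members and for 10 lists of other cell types and RNA classes. In germline cortex the summed level of 5 choroid plexus genes was 4.76 to 44.9 CPM (a gene's counts scaled to the library's total count) in HET and 8.48 to 524 CPM in WT, and its part in the members' values was not tested.

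All 33 interneuron genes were detected in whole cortex, and per kilobase of exon their levels spanned from the abundant peptide genes to the marker of a rare cell class. In germline WT cortex Cck, a peptide gene that many excitatory neurons also express, had 222 CPM per kb, and Sst had 206. Npy, encoding neuropeptide Y, had 97.0 CPM per kb and Lamp5, encoding a vesicle membrane protein, had 81.3. Neighbours in this order mostly lay within each other's spread between libraries, Cck and Sst included, while Sst stood above Npy, and Lamp5 above Pvalb, by more than that spread. Pvalb had 47.8 CPM per kb, Gad1 42.9, Slc32a1 28.4, Gad2 27.3 and Vip 14.3. At the low end, Adarb2, which encodes a catalytically inactive RNA editing relative, had 1.37 CPM per kb, and Chodl, a marker of rare long-range Sst cells, had 0.137. In bulk cortex, fewer interneurons and less of an RNA per interneuron cannot be told apart.

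Between germline WT cortex libraries most members varied little. Their coefficient of variation had a median of 15.8% over the members, with 8.5% for Lhx6 and 65.4% for Calb2, which encodes the calcium-binding protein calretinin. Over all groups this median ran from 12.7% in the conditional WT synaptic fraction to 30.0% in the germline WT synaptic fraction.

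No interneuron gene passed the test between HET and WT in germline whole cortex. Of the 33 members 0 had an adjusted p under 0.05, where 0.334% of the 17074 genes tested did, and 7 had an unadjusted p under 0.05, where 9.25% of all genes did. Their log2 fold changes ranged from -0.47 to 0.30 with a median of 0.00, the same as over all genes.

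Gad1, the main GABA-synthesising enzyme, had 233, 338 and 401 CPM as the lowest, median and highest of 16 HET libraries, against 273, 336 and 396 CPM in 15 WT libraries. Gad2, its synaptic partner enzyme, had 113, 174 and 193 CPM in HET and 131, 165 and 188 CPM in WT. Slc32a1 had 56.4, 82.1 and 97.5 CPM in HET and 63.8, 79.8 and 98.9 CPM in WT. For these 3 genes the HET and WT ranges overlapped widely. The 95% interval of the log2 fold change was -0.14 to 0.15 for Gad1, with a fold change of 0.00.

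Pvalb had 41.5, 56.4 and 79.0 CPM in HET against 35.5, 50.1 and 63.8 CPM in WT, and its log2 fold change of 0.18 (95% interval 0.02 to 0.35) did not pass the adjustment (adjusted p = 0.46, edgeR). Sst had 120, 150 and 183 CPM in HET against 120, 147 and 186 CPM in WT, with a 95% interval of -0.10 to 0.14. Vip had 38.4, 51.4 and 63.8 CPM in HET against 37.2, 48.0 and 63.2 CPM in WT. The ranges of these 3 class-naming genes overlapped between genotypes as well, those of Pvalb between 41.5 and 63.8 CPM. The smallest p among the members belonged to Crh, the gene of corticotropin-releasing hormone, which averaged 9.56 ± 2.04 CPM in HET and 7.71 ± 1.49 CPM in WT (SD, n = 16 and 15), with a log2 fold change of 0.30 (SE 0.09, adjusted p = 0.19, edgeR). Chodl (-0.47, adjusted p = 0.37) and Pnoc (0.20, adjusted p = 0.41), the prepronociceptin gene, came next and did not pass either. Within the 2 batches the counts of members at an unadjusted p under 0.05 were 4 and 3, and no member passed the adjustment in either, the members' median fold changes being 0.07 and -0.06. DESeq2 also called 0 members here and in every other genotype comparison.

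**Figure D1:**
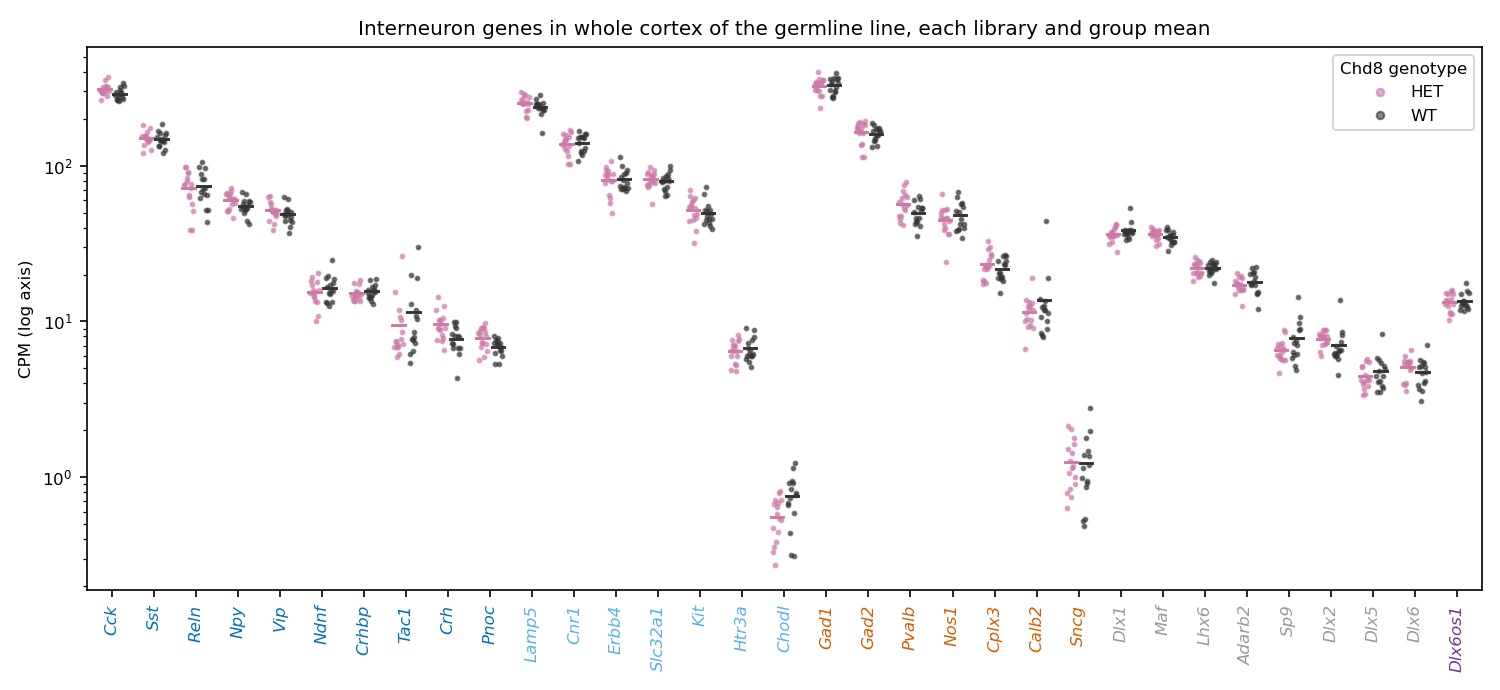
CPM on a log axis for each of the 33 genes in whole cortex of the germline line, with 1 point per library and a bar at each group mean, HET left of WT. Gene names are coloured by where the protein works (blue secreted, light blue membrane, orange cytoplasmic, grey nuclear, purple noncoding RNA). The HET and WT points overlap for every gene, as for Gad1 with 233 to 401 CPM in HET and 273 to 396 CPM in WT.

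In the germline nuclear fraction the members also gave 0 calls, where 0.0151% of 19912 genes were called, and 1 member had an unadjusted p under 0.05, where 7.38% of all genes did. That member was Ndnf, encoding a secreted factor of neurogliaform cells, which averaged 22.7 ± 4.11 CPM in HET and 28.7 ± 5.61 CPM in WT nuclei (SD, n = 9 and 12; adjusted p = 0.49, edgeR). Maf (-0.17), a transcription factor of medial eminence cells, and Adarb2 (0.17) had the next smallest p. Without both libraries of doubtful sex 0 members were called and 2 had an unadjusted p under 0.05.

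In the germline cytosolic fraction 0 members and 0% of 18454 genes were called, and 6 members had an unadjusted p under 0.05, where 3.28% of all genes did. Nos1, the neuronal nitric oxide synthase gene, averaged 54.5 ± 5.07 CPM in HET and 63.1 ± 5.16 CPM in WT (SD, n = 7 and 5), a log2 fold change of -0.24 with an adjusted p that rounds to 1 (edgeR). Pvalb had 71.1, 82.5 and 90.6 CPM as the lowest, median and highest of 7 HET libraries, against 66.1, 66.6, 67.2, 67.3 and 81.4 CPM in the 5 WT libraries. The 2 groups overlap only through the highest WT library, WT female replicate 3, and the log2 fold change of 0.24 (95% interval 0.04 to 0.44) did not pass. Chodl, with -1.36, had the largest fold change, from levels of 0.0384 to 0.604 CPM in HET and 0.357 to 0.755 CPM in WT, near the detection limit.

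The germline synaptic fraction was the germline comparison in which the members' fold changes shifted most to 1 side. Of the 33 members, 25 had a log2 fold change above 0 and their median was 0.26, while the median of all 17178 genes tested was 0.00. Still 0 members and 0% of genes had an adjusted p under 0.05, and 11 members had an unadjusted p under 0.05, where 11% of all genes did. Slc32a1 had 127, 159 and 189 CPM as the lowest, median and highest of 7 HET libraries, against 56.9, 122 and 182 CPM in 11 WT libraries, a log2 fold change of 0.47 (95% interval 0.12 to 0.82, adjusted p = 0.34, edgeR). Erbb4, the neuregulin receptor that interneurons carry, had 0.46 (adjusted p = 0.31), and Cnr1, the cannabinoid receptor of Cck cells, had 0.34 (adjusted p = 0.33). Sncg, the gamma-synuclein gene, went the other way with -1.0 (adjusted p = 0.33), at 0.422 ± 0.162 CPM in HET and 0.758 ± 0.275 CPM in WT (SD, n = 7 and 11).

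The 9 nuclear-retained RNAs went the other way in the germline synaptic comparison, with a median log2 fold change of -0.80. Their summed levels were 508 to 1920 CPM in HET and 1160 to 33100 CPM in WT, with none at 0. Their part in the members' values was not tested. Without both nuclear-profile WT libraries the members' median was 0.12, with 26 above 0. Slc32a1 alone was then called (log2 fold change 0.32, SE 0.07, adjusted p = 0.0496, edgeR), where 0.842% of 16862 genes were. With no filter on low counts and all libraries, Slc32a1 (0.50) and Erbb4 (0.49) were called, where 0.807% of 34185 genes were. Without both libraries Gad1 had 0.14 (95% interval 0.02 to 0.27), Sst 0.04 (-0.10 to 0.19) and Pvalb 0.07 (-0.14 to 0.29). The call of Slc32a1 was made with sex and 3 batch groups in the fit. Male HET and male WT synaptic libraries shared none of these 3 groups. Of the 6 finer batch levels, the level that held the HET males held no WT synaptic library. Genotype and batch therefore cannot be told apart among the males. With genotype alone in the fit, 0 members and 0% of genes were called, and with 6 batch levels Slc32a1 (0.35) and Lamp5 (0.43) were, where 2.53% of genes were. Both of these settings, fitted without both nuclear-profile libraries, were chosen after seeing the data. With 6 batch levels and all libraries the members' median was 0.05, and the fold changes of Gad1 (-0.07), Pvalb (-0.22) and Sst (-0.14) turned below 0.

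In the conditional line, where Cre is driven by Camk2a, whole cortex likewise gave 0 calls among the members and 0% among 21798 genes. The median log2 fold change of the members was 0.05, and 2 members had an unadjusted p under 0.05, where 3.08% of all genes did. Gad1 averaged 264 ± 65.2 CPM with Cre and 262 ± 58.5 CPM without Cre (SD, n = 6 and 8), with a 95% interval of -0.39 to 0.37. Calb2 had the smallest p, with 8.33, 14.9 and 68.5 CPM as the lowest, median and highest with Cre against 8.53, 10.8 and 13.9 CPM without, a log2 fold change of 0.99 (adjusted p = 0.88, edgeR). The lowest Cre library lay below every library without Cre and the highest above them all. The summed level of the 14 striatal genes was likewise more spread with Cre, 229 to 1390 CPM against 581 to 987 CPM without, and its part in this value was not tested. Chodl (0.74) and Sncg (0.72) had the next smallest p.

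In conditional nuclei 0 members and 0% of 21133 genes were called in HET and in HOM, which share the 4 WT libraries. The members' log2 fold changes had a median of 0.17 in HET, with 28 above 0, and of 0.30 in HOM, with 30 above 0, where the medians of all genes were 0.01 in HET and -0.01 in HOM. At an unadjusted p under 0.05 stood 3 members in HET, where 4.45% of all genes did, and 5 in HOM, where 11.6% did. Without the animal of 2 genotype labels the HET comparison again gave 0 calls, with 4 members at an unadjusted p under 0.05, where 5.5% of all genes were, 29 above 0 and a median of 0.19. Other lists shifted in HOM as well, some upward as the members did and some downward. The 15 excitatory neuron genes had a median of 0.29 and the 14 striatal projection neuron genes 0.49, the 9 nuclear-retained RNAs had -0.45, and the 4 endothelial genes had -0.88. The summed level of the endothelial genes was 163 to 506 CPM in HOM against 323 to 893 CPM in WT nuclei, with none at 0, and its part in the members' values was not tested.

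Sst had 94.2, 104 and 108 CPM in the 3 HOM nuclear libraries, against 58.0, 66.2, 74.9 and 82.0 CPM in the 4 WT libraries, and the 6 HET libraries lay between 72.7 and 124 CPM. Every HOM library stood above every WT library, whereas HET overlapped both. The log2 fold change of Sst in HOM was 0.62 (95% interval 0.20 to 1.03, adjusted p = 0.43, edgeR). Gad1 had 258, 268 and 285 CPM in HOM against 179, 202, 206 and 250 CPM in WT, also without overlap, with 0.44 (95% interval 0.12 to 0.77, adjusted p = 0.43). Dlx1 was the third such member, with 33.9, 35.1 and 37.6 CPM in HOM against 31.1, 32.2, 32.4 and 33.3 CPM in WT. HOM libraries stood wholly above WT for 3 of the 33 members, where they did for 3.47% of 16329 genes, and wholly below for 0, where they did for 6.67%. Gad2 had 104, 139 and 147 CPM in HOM against 82.3, 99.8, 99.8 and 128 CPM in WT, and Vip averaged 51.6 ± 3.26 CPM in HOM and 44.9 ± 4.59 CPM in WT (SD, n = 3 and 4). These 2 genes overlapped between the groups, as Slc32a1 and Pvalb did. Calb2 had the smallest p of the members in HOM (log2 fold change 0.88, adjusted p = 0.43, edgeR), from 4.99, 8.04 and 9.28 CPM in HOM against 3.35, 3.92, 4.37 and 5.93 CPM in WT. Fitted with no filter on low counts, Sst (0.61) and Calb2 (0.87) were called in HOM, where 0.948% of 36504 genes were.

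In the conditional synaptic fraction 0 members and 0% of 17505 genes were called in HET or HOM, with 6 members at an unadjusted p under 0.05 in HET, where 4.37% of all genes did, and 2 in HOM, where 4.96% did. Sst had 187, 257, 281, 295 and 328 CPM in the 5 HET libraries, 187, 212, 218, 228 and 292 CPM in the 5 HOM libraries, and 147, 180, 209 and 211 CPM in the 4 WT libraries. In HET 4 of 5 libraries and in HOM 4 of 5 stood above every WT library. Its log2 fold change was 0.52 in HET (95% interval 0.22 to 0.82, adjusted p = 0.99, edgeR) and 0.32 in HOM (95% interval 0.02 to 0.61, adjusted p = 0.92). With no filter on low counts Sst was called in HET (0.53), where 0.0623% of 32095 genes were. Crhbp, encoding the binding protein of corticotropin-releasing hormone and a marker of Sst cells, had 0.26 in HET and Cnr1 had 0.29, neither passing the adjustment.

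Crh was the member whose HOM and WT synaptic libraries did not overlap, with 8.74, 8.85, 11.2, 11.6 and 12 CPM in HOM against 13, 13.5, 14.1 and 16.1 CPM in WT, a log2 fold change of -0.42 (95% interval -0.69 to -0.14, adjusted p = 0.92, edgeR). HOM lay wholly below WT for this 1 member, where it did for 0.9% of 14006 genes. Without HOM female replicate 2, the animal of 2 genotype labels, its fold change was -0.45 and that of Sst 0.35. The HOM comparison then gave 0 calls, with 2 members at an unadjusted p under 0.05, where 5.93% of all genes were, and a median of 0.07 over the members, against 0.08 with it. In the HET synaptic libraries Crh overlapped WT, at 11 to 16.1 CPM. Gad1 averaged 393 ± 48.4 CPM in HET, 406 ± 47.1 CPM in HOM and 369 ± 22.5 CPM in WT (SD, n = 5, 5 and 4), and its groups overlapped. Sst is the member with an unadjusted p under 0.05 in all 4 conditional fraction comparisons. The 2 comparisons of a fraction share their WT libraries, and the WT libraries of both fractions carry the same 4 animal numbers. Most mutant animals also gave both fractions, so the 4 comparisons are not independent. In germline cortex, nuclei, synaptic fraction and cytosol the fold changes of Sst were 0.02, -0.08, 0.25 and 0.15.

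RNA of the members was mostly higher in the synaptic than in the nuclear fraction of the same animals, in both lines and every genotype. Of 33 members, 25 were called higher and 3 lower in germline HET (5 animals), where 34.5% of 18914 genes were called higher, 38.5% lower and 73% in all. In germline WT (10 animals) 24 were higher and 3 lower, where 30.8% of 18879 genes were higher, 35.1% lower and 65.9% in all. Conditional HET (5 animals) gave 28 higher and 2 lower (31.5%, 33.5% and 65% of all genes), conditional HOM (3 animals) 24 and 1 (24.7%, 26.9% and 51.6%), and conditional WT (4 animals) 26 and 2 (31.9%, 35% and 66.9%). The members' median log2 fold changes were 1.36 in germline HET, 0.89 in germline WT, 1.21 in conditional HET, 0.97 in conditional HOM and 1.24 in conditional WT, and those of all genes lay between -0.06 and -0.03. In all 5 comparisons 20 members were higher, and Pvalb, Calb2, Chodl, Sp9, Maf, Dlx2, Dlx6os1 and Ndnf in 1 to 4 of them. In germline WT 11 of 15 excitatory neuron genes were also higher in this fraction, with a median of 0.65. The direction is thus shared with that list, and the members' difference from it was not tested.

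The values depend on how the fractions are scaled. TMM scaling, used in these fits, moves each gene by 0.50 to 0.61 on the log2 scale on average relative to CPM of the total count. On the latter scale the mean ratio of 24 members was above 0 in germline WT, against 29 with TMM, and Dlx2, Dlx5, Dlx6, Lhx6 and Maf turned from above to below 0. In the other groups 5 to 9 members turned in the same way, Pvalb among them in conditional HET and HOM.

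Among the transmitter genes, Gad2 had 117, 146 and 162 CPM as the lowest, median and highest of the germline HET synaptic libraries against 52.9, 65.7 and 76.5 CPM in HET nuclei, and 78.8, 127 and 149 CPM in WT synaptic libraries against 47.7, 61.5 and 69.1 CPM in WT nuclei. The synaptic libraries stood above all nuclear ones in both genotypes. In the paired fit the log2 fold change of Gad2 was 1.78 in HET (95% interval 1.5 to 2.06) and 1.44 in WT (95% interval 1.09 to 1.78), and it was higher in 10 of 10 WT animals on either scale. Gad1 had 1.30 in WT (95% interval 0.92 to 1.69) and was higher in 9 of 10 animals on either scale. Slc32a1 had 1.42 in WT (95% interval 0.94 to 1.89), and in the conditional line it had the highest ratio of the 33 members in each group, with 2.07 in HET, 1.74 in HOM and 2.07 in WT.

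The peptide genes Npy, Sst and Cck had the 3 highest ratios in germline WT. Npy had 1.65 in germline WT (95% interval 1.15 to 2.16), from 41.7, 111 and 146 CPM in synaptic libraries against 20.9, 43.6 and 79.9 CPM in nuclei. Sst had 1.63 (95% interval 1.17 to 2.09), from 98.2, 247 and 338 CPM against 78.0, 100 and 136 CPM, and was higher in 10 of 10 animals with TMM and in 9 of 10 on CPM of the total count. The lowest synaptic values of both genes overlapped the nuclear range. Cck had 1.52 (95% interval 1.04 to 2.00) and Pnoc 1.42 (95% interval 0.93 to 1.92), each higher in 9 of 10 animals with TMM, and in 9 and 8 on CPM of the total count. Other peptide genes had smaller ratios in germline WT, 1.01 for Tac1 and 0.98 for Crh. Vip had 0.71 (95% interval 0.35 to 1.07). Pvalb, a soluble calcium buffer, had 1.27 in germline WT (95% interval 0.78 to 1.75) but 0.31 in conditional HET, 0.32 in conditional HOM (adjusted p = 0.075, edgeR) and 0.75 in conditional WT. The lines were prepared as separate sets, and the difference of Pvalb between them was not tested.

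Over the 5 comparisons 5 members were never called higher in the synaptic fraction: the transcription factors Dlx1, Dlx5 and Dlx6, and Adarb2 and Sncg. Sncg had the lowest ratio in germline WT, -1.23 (95% interval -1.77 to -0.70), and was lower in 10 of 10 animals, from 0.237, 0.740 and 1.20 CPM in synaptic libraries against 1.58, 2.54 and 3.81 CPM in nuclei. Sncg RNA stood at under 4 CPM in every nuclear and synaptic library. Adarb2 had -0.61 in germline WT (95% interval -1.02 to -0.20) and -0.99 in germline HET, and was called lower in all 5 comparisons. Its call in conditional HOM (-0.38) was lost with DESeq2 (adjusted p = 0.071), with no filter on low counts (adjusted p = 0.089) and without any 1 of the 3 animals. Ndnf had -0.57 in germline WT (95% interval -0.94 to -0.21) but 0.60 in conditional HET (95% interval 0.36 to 0.85), the 1 member called in both directions. On CPM of the total count its mean log2 ratio was -1.05 in germline WT and 0.05 in conditional HET. It was -0.40 in germline HET, -0.11 in conditional HOM and -0.29 in conditional WT, so values above 0 depend on the scaling. Dlx1 had -0.20 in germline WT (95% interval -0.44 to 0.05) and Dlx6 had 0.01 (95% interval -0.29 to 0.32), neither called.

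Grouped by where the protein works, a grouping made after values were seen, germline WT gave 9 higher and 1 lower of 10 secreted products (median 1.34), 6 higher of 7 membrane proteins (0.86), 6 higher and 1 lower of 7 cytoplasmic proteins (1.27), and 2 higher and 1 lower of 8 nuclear proteins (0.10). The long noncoding RNA Dlx6os1 had 0.53 (95% interval 0.13 to 0.93). The 8 nuclear proteins had medians of 0.50, 0.24, 0.33 and 0.22 in germline HET and conditional HET, HOM and WT. These were below those of the secreted group in each, 1.75, 1.68, 1.44 and 1.69. The 7 cytoplasmic proteins had 1.41, 0.77, 0.53 and 0.97 in the same order. In the conditional line their medians were thus also below those of the 7 membrane proteins, 1.73 in HET, 1.24 in HOM and 1.52 in WT. The difference of the cytoplasmic group between the lines was not tested. Across the members the ratio in germline WT had a Spearman rho of -0.01 with the gene's span and -0.35 with its exon length (n = 33 genes, which share libraries), where all genes had 0.14 and 0.07. The rho with exon length was weaker elsewhere, -0.30 in germline HET and -0.13, -0.12 and -0.22 in conditional HET, HOM and WT.

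Some of these animals are doubtful. Among the 10 germline WT animals, nuclei labelled WT male replicate 7 and synaptic RNA labelled WT male replicate 6 carry 1 animal number but unlike sex markers, so they cannot come from 1 animal. Without that pair 25 members were called, where 63% of 19006 genes were. Without the animals of both nuclear-profile libraries 28 members were called, where 75% of 18442 genes were. The remaining 8 animals, counted by animal number, still include the pair with unlike sex markers. In these 8, 22 members were higher in every animal with TMM, where 28.4% of 16494 genes were, and 12 on CPM of the total count, where 7.86% were. In all 10 animals these counts were 12 with TMM (12.7% of 16590 genes) and 1, Gad2, on CPM of the total count (1.65%). That pair is also counted wherever 10 germline WT animals are given above.

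**Figure D2:**
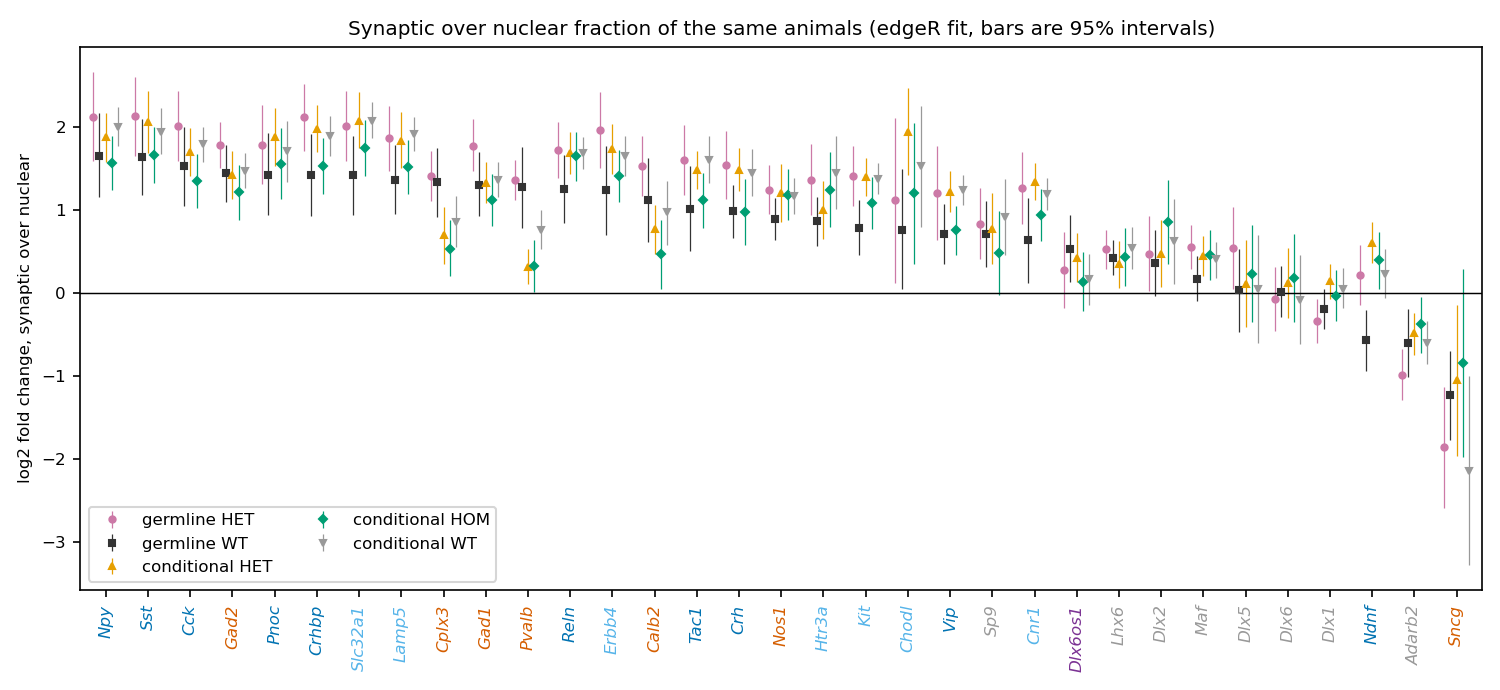
Log2 fold change of the synaptic over the nuclear fraction of the same animals for each of the 33 genes, with 95% intervals, in germline HET and WT and conditional HET, HOM and WT. Gene names run from the highest to the lowest value in germline WT, coloured by where the protein works (blue secreted, light blue membrane, orange cytoplasmic, grey nuclear, purple noncoding RNA). Adarb2 and Sncg lie below 0 in all 5 groups, and Slc32a1 lies above 1 in all 5. With the TMM scaling used here Ndnf lies below 0 in germline WT and above 0 in the other groups.

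No interaction with genotype was detectable at this number of animals. The interaction of fraction and genotype gave 0 members and 0% of genes called in germline HET, conditional HET and conditional HOM. The members' median interaction was 0.45 in germline HET, with 28 above 0, -0.01 in conditional HET and -0.27 in conditional HOM, with 7 above 0, where all genes had medians of -0.07, 0.00 and -0.02. Without the animals of both nuclear-profile libraries the germline median was 0.20, with 24 above 0. At an unadjusted p under 0.05 stood 3 members in germline HET, where 7.21% of all genes did, 1 in conditional HET (2.89%) and 6 in conditional HOM (4.78%). Ndnf had the smallest p in the germline line (0.76, 95% interval 0.16 to 1.36, adjusted p = 0.59, edgeR), Pvalb in conditional HET (-0.46, 95% interval -0.78 to -0.15, adjusted p that rounds to 1) and Vip in conditional HOM (-0.51, 95% interval -0.86 to -0.17, adjusted p = 0.89).

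Set against the synaptic fraction, the cytosolic fraction split the members by the place where their protein works. In germline HET and in WT all 17 members with a secreted or membrane product were at lower CPM in the cytosolic than in the synaptic fraction, and all 16 others were at higher CPM. This is a description of levels with no test, since the cytosolic libraries were made as a separate set. The grouping was made after values were seen, and the same split was not examined among all genes. The median log2 ratio of all genes was itself above 0, at 0.62 in HET and 0.30 in WT. Cytosolic libraries lay wholly below synaptic ones for 14 members in HET, where they did for 18.1% of genes, and for 11 in WT (13.3%). They lay wholly above for 12 members in HET (51.5%) and for 12 in WT (24.1%). With TMM scaling, which moves the ratio by -0.62 in HET and -0.47 in WT, the 17 stayed lower in both genotypes, and 15 in HET and 16 in WT of the 16 others stayed higher. Without both nuclear-profile synaptic libraries the WT counts were again 17 and 16. Against the nuclear fraction, where all genes had medians of -0.38 in HET and -0.41 in WT, the split was not complete. Crhbp (0.32 in HET, 0.24 in WT) and Erbb4 (0.25 in HET, 0.26 in WT) were then higher in the cytosol in both genotypes and Tac1 in HET (0.05), while Sncg (-0.88 in HET, -0.89 in WT) and Adarb2 (-0.12 in HET, -0.04 in WT) were lower.

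Slc32a1, a membrane transporter, had 16.1, 24.7 and 32.6 CPM as the lowest, median and highest of 7 HET cytosolic libraries, against 127, 159 and 189 CPM in the synaptic fraction. In WT it had 16.1, 16.4, 19.3, 20.8 and 24 CPM in the cytosolic libraries, against 56.9, 122 and 182 CPM in the synaptic fraction and 63.8, 79.8 and 98.9 CPM in whole cortex. No cytosolic library reached the lowest synaptic or cortical one. Gad1, a soluble enzyme of the same neurons, averaged 523 ± 43.1 CPM in the HET cytosolic libraries (SD, n = 7), against 277, 347 and 399 CPM in the synaptic fraction. In WT it ran from 442 to 560 CPM over the 5 cytosolic libraries, against 157 to 332 CPM in the 11 synaptic libraries and 273, 336 and 396 CPM in whole cortex. Every cytosolic library lay above every synaptic and cortical one of its genotype. The log2 ratio of Gad1 over the synaptic fraction, 0.62 in HET and 0.85 in WT, was at the median of all genes in HET (0.62) and above it in WT (0.30), whereas that of Slc32a1 was below it in both. Gad2 averaged 262 ± 21.1 CPM in HET cytosol (SD, n = 7) against 165 ± 26.1 CPM in HET cortex (n = 16).

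Sst averaged 52.7 ± 8.20 CPM in WT cytosol and 149 ± 17.2 CPM in WT cortex (SD, n = 5 and 15), and Cck averaged 114 ± 15.9 CPM and 289 ± 24.9 CPM. Pvalb, a soluble protein that names a class as Sst does, averaged 69.7 ± 6.52 CPM in WT cytosol and 49.7 ± 8.08 CPM in WT cortex. Against whole cortex all 17 secreted and membrane products were again lower, with medians of -1.20 on the log2 scale for secreted and -0.92 for membrane products in WT, while the 7 cytoplasmic products had a median of 0.41, with 5 above 0, and the 8 nuclear ones 0.34, with 5 above 0.

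**Figure D3:**
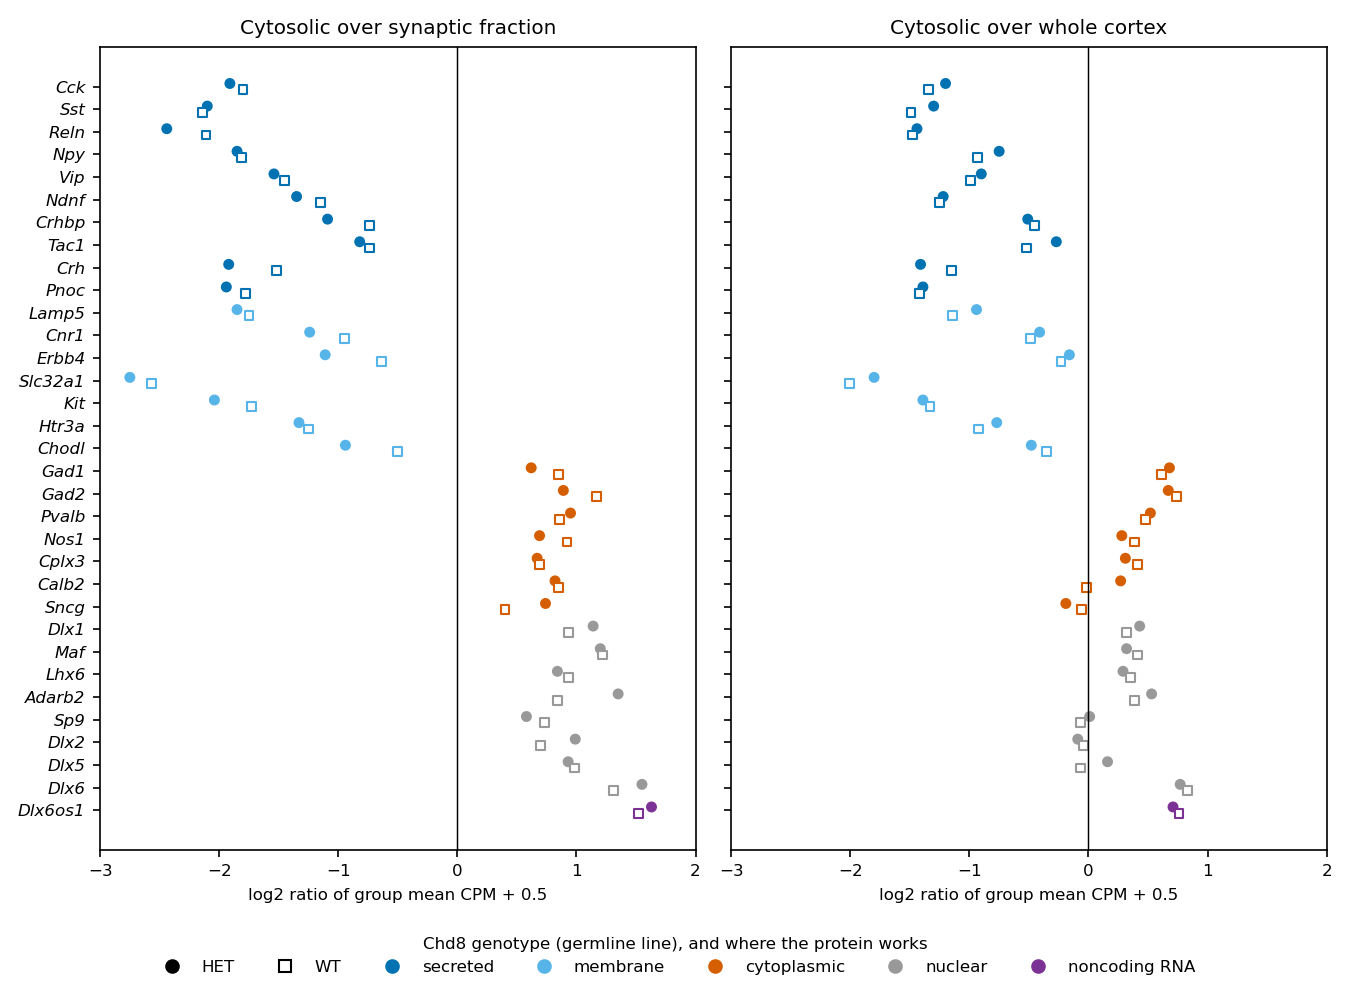
Log2 ratio of group mean CPM + 0.5 in the cytosolic fraction over the synaptic fraction (left) and over whole cortex (right) of the germline line, for HET (filled circles) and WT (open squares), with genes grouped and coloured by where the protein works. In the left panel all 17 secreted and membrane products lie below 0 and all 16 others above 0 in both genotypes.

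Striatal projection neurons are GABAergic too, so striatal tissue in a cortical dissection could add to the members' RNA. The mean log2(CPM + 0.5) of 14 striatal genes ranged from 2.14 to 4.95 over the 31 germline cortex libraries, with a median of 2.44. Of 33 members tested on the same log2 scale, 1, Tac1, followed it under both Pearson's r (0.93) and Spearman's rho (0.73), each with an adjusted p under 0.05 (permutation test with 100000 resamples, adjusted p = 0.00033 for r and 0.00066 for rho, where the p of r is the smallest the permutations can give). Tac1 encodes the substance P precursor, which striatal neurons make in quantity. Within the batches its r was 0.95 and its rho 0.45 in CHD807 (n = 16), and 0.92 and 0.81 in CHD80456 (n = 15). Without HET male replicate 7 and WT male replicate 8 its r was 0.90. Tac1 had 5.89, 7.41 and 26.4 CPM as the lowest, median and highest of the HET libraries and 5.42, 8.57 and 29.9 CPM in WT. Spearman's rho of Sp9 (0.51), Maf (-0.49) and Vip (-0.59) had adjusted p-values of 0.041, 0.041 and 0.016 (permutation test), while their Pearson's r did not pass. Within CHD807 and CHD80456 the rho was 0.25 and 0.49 for Sp9, -0.58 and -0.21 for Maf, and -0.36 and -0.5 for Vip. The permutations over 31 libraries did not take batch into account. The r of Gad1 was 0.05 (permutation p = 0.79) and that of Gad2 0.14 (permutation p = 0.47), so no relation of the decarboxylases was detectable over these 31 libraries.

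**Figure D4:**
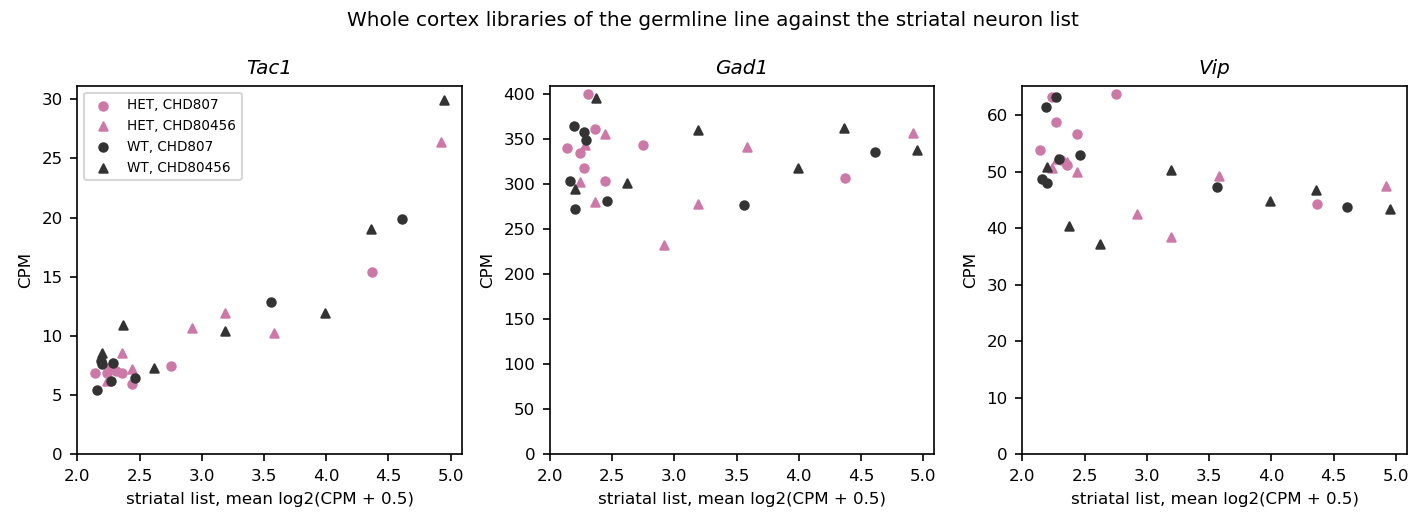
CPM of Tac1, Gad1 and Vip (vertical axes, from 0) against the mean log2(CPM + 0.5) of 14 striatal genes in 31 whole cortex libraries of the germline line, pink for HET and black for WT, circles for batch CHD807 and triangles for CHD80456. Tac1 is higher where the striatal level is high (r = 0.93 on the log2 scale), and Gad1 shows no such trend (r = 0.05). Vip tends to be lower where that level is high (r = -0.46), and this r did not pass the adjustment.

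Of 28 other interneuron genes, among them the peptide genes Penk and Tac2, 27 were tested in germline cortex and 0 were called, with a median log2 fold change of 0.05. In HOM nuclei 28 were tested and 0 called, with a median of 0.24, beside the 0.30 of the members. Between fractions of germline WT animals 21 of 27 were higher in the synaptic fraction and 2 lower, where 30.8% of all genes were higher and 35.1% lower, with a median of 0.90, beside the members' 0.89. The 5 genes of GABA transport and breakdown were not called by genotype in germline cortex (median 0.06), and 4 were higher and 1 lower in the synaptic fraction of germline WT, beside the same shares of all genes. Abat, which breaks GABA down, had 1.17.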

How the data were processed

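Raw counts per gene were deposited by the authors for 6 tables. Per the submitters' processing notes reads were handled with STAR 2.5.4b and featureCounts 2.0.0, and the table of conditional cortex names featureCounts 1.6.0 and Ensembl 95, per the file headers. Of 127 labelled libraries 123 were analysed, 4 cytosolic ones were not analysed here, and 16 libraries in 2 tables were identical and used once. A Cre row (at most 0.00135% of counts) was left out. Even counts were in excess (56.3 to 74.7%), so mates may be counted separately. Strand settings are not given in full in the sources used here, and 8 members overlap an antisense exon, so their reads cannot be told apart from their partners'. These are Slc32a1, Reln, Dlx1, Dlx6, Dlx6os1, Nos1, Maf and Sp9. Lhx6 and Dlx6os1 also overlap an exon on their own strand. Dlx6os1 stands on 2 IDs, and the longer gene was used.

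Tests were edgeR 4.0.16 quasi-likelihood F tests (R 4.3.3; TMM, filterByExpr with a minimum count of 10) over all genes, with Benjamini-Hochberg adjustment and calls at 0.05, and sex and batch as covariates where labelled. Synaptic and nuclear libraries of 1 animal were paired by the animal number in their names. CPM divide by the library's total count. Replicates are libraries of separate animals as far as labels say. The fits were tested on simulated data. Same-numbered libraries of different genotypes did not deviate together throughout (correlations of -0.53 to 0.76 in germline cortex), so numbers were not taken to pair them.

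Full values are given for Gad1, Gad2, Slc32a1, Pvalb, Sst and Vip, for members called by genotype, for the 5 members with the largest change each way between fractions in germline WT, and the 3 smallest p of each genotype comparison are named. The members, the lists and these rules were chosen with earlier results of these data known, and other genes were named after their values were seen. Alternatives tried were another tool (DESeq2 1.42.0), RLE scaling, dropping the filter, other covariates, a replicate block, and leaving libraries out. Promoters are RefSeq's.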

Additional observations from a re-analysis of the deposited data

Results flagged for a closer look

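The CPM of the 14 members given in full were screened for a library far from the rest in groups of 4 to 10 libraries, 154 screens in all, and 11 such values were found, where chance gives about 1 in 20 screens. The other members were not screened. In germline HET nuclei, 1 library, HET female replicate 3, stood apart for 4 of these 14 members: Slc32a1 with 90.8 CPM (next 68.8), Sst with 186 CPM (next 111), Pnoc with 10.1 CPM (next 5.64) and Dlx6 with 6.75 CPM (next 4.19). Sncg had 3.79 CPM in nuclei of HET female replicate 1 (next 2.49).

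In the cytosolic fraction Gad1 had 619 CPM in HET male replicate 1 (next 516), Pvalb had 81.4 CPM in WT female replicate 3 (next 67.3), and Dlx1 had 58.0 CPM in WT male replicate 4 (next 47). In the conditional line Npy had 140 CPM in the synaptic library of HET female replicate 3 (next 107), Cck had 293 CPM, the lowest value, in that of WT female replicate 2 (next 332), and Sncg had 8.40 CPM in whole cortex of Cre male replicate 2 (next 3.87).

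With TMM scaling the synaptic over nuclear ratio of Dlx1 lay on opposite sides of 0 in the HET animals of the 2 lines. Its median log2 ratio was 0.15 in conditional HET, above 0 in 5 of 5 animals, in 1 of them by a value that rounds to 0, and -0.24 in germline HET, below 0 in 5 of 5 animals. On CPM of the total count it was below 0 in every animal of both groups, with means of -0.40 in conditional HET and -0.93 in germline HET, so the opposite sides depend on the scaling. The difference between the lines was not tested.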

How the results depend on the processing

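Of 2733 alternative fold changes 2654 kept their direction and side of the threshold or were at 0 to 2 decimals, 15 were no longer called, 10 became called and 54 reversed, of which 0 were called in either fit. With 6 batch levels the germline synaptic fold changes of Gad1 (-0.07), Pvalb (-0.22) and Sst (-0.14) turned below 0, and without both nuclear-profile libraries in addition that of Pvalb was -0.04. In batch CHD80456 alone Gad2 (-0.07), Slc32a1 (-0.07) and Sst (-0.02) turned below 0 in germline cortex. Gad1 was -0.01 in germline nuclei with a replicate block, and the interaction of Slc32a1 in conditional HET was 0.01 with DESeq2 and with RLE scaling. Without the animals of both nuclear-profile libraries Dlx6 was -0.03 between fractions in germline WT and the germline interaction of Pvalb -0.22. Leaving out single libraries or animals turned 19 fold changes, each at most 0.18 in size with all libraries. Their ranges were -0.03 to 0.07 for Gad1 and -0.02 to 0.12 for Vip in germline nuclei, -0.10 to 0.05 for Gad2 in cytosol, -0.14 to 0.07 for Gad1, -0.17 to 0.14 for Gad2 and -0.04 to 0.13 for Slc32a1 in conditional cortex, and for Gad2 -0.02 to 0.27 in conditional HET nuclei, -0.04 to 0.09 in the HET and -0.03 to 0.11 in the HOM synaptic fraction. Between fractions they were -0.03 to 0.08 for Dlx6 in germline WT, -0.06 to 0.15 for Dlx1 and -0.31 to 0.18 for Dlx6 in conditional WT, and -0.08 to 0.46 for Dlx6 in HOM. For interactions they were -0.11 to 0.16 for Pvalb in the germline line, and in conditional HET -0.17 to 0.01 for Gad1, -0.22 to 0.02 for Gad2, -0.19 to 0.16 for Slc32a1, -0.09 to 0.31 for Sst and -0.15 to 0.04 for Vip. Counts of members called by genotype were 0 in the fits as reported. With no filter on low counts they were 2 in the germline synaptic fraction (Slc32a1 and Erbb4), 2 in conditional HOM nuclei and 1 in the conditional HET synaptic fraction. Without both nuclear-profile libraries the germline synaptic count was 1, and with 6 batch levels in addition 2. The cause was not tested. Leaving out each library in turn gave 0 to 0 members in every genotype and interaction comparison. Between fractions it gave 27 to 30 members called in germline HET, 25 to 28 in germline WT, 26 to 30 in conditional HET, 21 to 23 in conditional HOM and 27 to 29 in conditional WT, where fewer animals were fitted. With a replicate block 0 members were called by genotype in every comparison, and without the animal block 29, 28, 30, 24 and 28 members were called between fractions in that order. With DESeq2 0 members were called by genotype. Ndnf in conditional HOM (0.39) lost its call between fractions under DESeq2, RLE scaling, no filter and no block. Small groups (3 HOM nuclear libraries) limit what could be detected, and Chodl and Sncg had the lowest CPM of the members in germline cortex.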
